A study of Onthophagus taurus with 96 samples.

Results

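The genes described here are 66 of the 17483 gene models of the horned dung beetle *Onthophagus taurus*. All but *ap-2* are named after *Drosophila* genes for vesicle coats and membrane traffic. They were chosen by name alone, as every gene whose annotated name was carried over from *Drosophila* and begins with rab, syx, vps, sec, exo, snx or arf and a number, with rabx or with ap and a number, together with *sar1*, *chc*, *clc* and the names that end in cop. Genes of the same kinds whose annotated names come from human genes, such as *sec13*, are outside the 66 and are counted in a further list below. They fall into 15 groups by role: 15 Rab GTPases, 7 genes of clathrin and its adaptors, 7 exocyst subunits, 6 ESCRT subunits, 6 syntaxins, 4 COPII coat genes, 4 translocon genes, 3 Arf GTPases, 3 COPI subunits, 3 sorting nexins, 2 HOPS-related genes, 1 retromer subunit, 1 Rab regulator, 3 other traffic genes (*sec22*, *sec71* and *vps13*) and *ap-2*. The name of *ap-2* is in *Drosophila* that of the transcription factor AP-2 and not of the clathrin adaptor, so this gene came in by its name. It forms a group of its own but is counted with the others in the totals and shares of traffic genes below.

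Proteins made for secretion or for membranes enter the endoplasmic reticulum through the Sec61 translocon, leave it in vesicles coated with COPII, and are sorted in the Golgi, from which COPI-coated vesicles bring escaped proteins back. Clathrin coats shape vesicles at the Golgi and the cell surface, small GTPases of the Arf, Sar1 and Rab families recruit coats and direct vesicles, the exocyst tethers them at the cell surface, and syntaxins drive the fusion. ESCRT, HOPS, sorting nexins and retromer act on endosomes and lysosomes. Insect epidermis uses this route to export the proteins and enzymes of the cuticle, and neurons use specialised forms of it to release transmitter. The roles given below for single genes are those of their *Drosophila* or yeast counterparts.

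RNA was sequenced from 4 tissues of male and female pupae on the first day after pupation: the head epithelium that bears the head horns, the dorsal first thoracic segment with the thoracic horns, the epidermis of the last abdominal segments (genitalia, with the copulatory organ in males) and the brain. Animals had been injected as larvae of the last instar, in 3 μL, with 0.5 μg of double-stranded RNA against *doublesex* (*dsx*RNAi), the transcription factor that directs somatic sex differences in insects, or with 1 μg of double-stranded RNA made from a vector (control), so both treatments had received an injection. The 2 sexes, 2 treatments and 4 tissues gave 16 groups of 6 libraries, 96 in all, numbered S1 to S96 in the labels, which do not link the tissues of one animal. The comparisons ask where expression differs between the sexes, whether knockdown of *dsx* alters it, and how the tissues differ.

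The counts of a library summed to 3615803 to 19008005 reads (median 8518004). Levels of one gene across libraries are given as CPM, the read count divided by library size after TMM scaling over all 96 libraries and put on one common scale, and levels of different genes are compared only as FPKM, which is per length. Differences between the sexes are log2 fold changes, female minus male. *P*adj is the Benjamini-Hochberg adjusted p of edgeR's quasi-likelihood test over all genes tested in a comparison, and a gene was called at a *P*adj under 0.05. The mean level of *dsx* itself was 49.5 CPM in control and 11.3 in *dsx*RNAi male head horns, and 47.2 and 23.7 CPM in the female head horns. Its mean was lower after knockdown in both sexes of the horns and genitalia. In females of these tissues the libraries of the treatments overlapped, in head horns at 7.33 to 48.8 CPM after knockdown and 19.5 to 75.1 in controls. In female genitalia they ran from 2.81 to 45.9 CPM and from 8.24 to 129. The male libraries did not overlap in these tissues. The means in brains were 0.460 CPM after knockdown and 0.422 in controls in females, and 0.169 and 0.183 in males. Of the markers of tissue, the chitin synthase gene *kkv* had mean levels of 1354 to 2762 CPM in control head horns and under 2.5 in control brains, and the synaptic gene *brp* had 682 to 724 CPM in control brains and 16.8 to 27.5 in control head horns.

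Most of the 66 genes were expressed in every group at similar levels. For 49 of them the highest of the 16 group means was less than 2 times the lowest, and the median ratio was 1.75. The steadiest was *snx1*, a sorting nexin of the retromer, at 1.14 times. Only 4 genes reached a ratio of 10: *rab3* (157), *vps13* (112), *rab3-gef* (73.6) and *rabx4* (46.6), all of them highest in brain. The next were *syx6* (4.48), *vps16b* (4.13), *rab30* (3.36), *rab6* (3.09) and *sec5* (3.01). The highest group was a brain group for 22 genes, a genital group for 19, a head horn group for 19 and a thoracic horn group for 6. Compared by mean FPKM over the 96 libraries, the most abundant were the Arf GTPase *arf79f* at 330, the translocon subunit *sec61beta* at 250, and *rab1*, *rab11* and *sar1* at 207, 193 and 168. The least abundant were *vps13* at 1.22 and *vps16b* at 1.51.

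**Figure D1:**
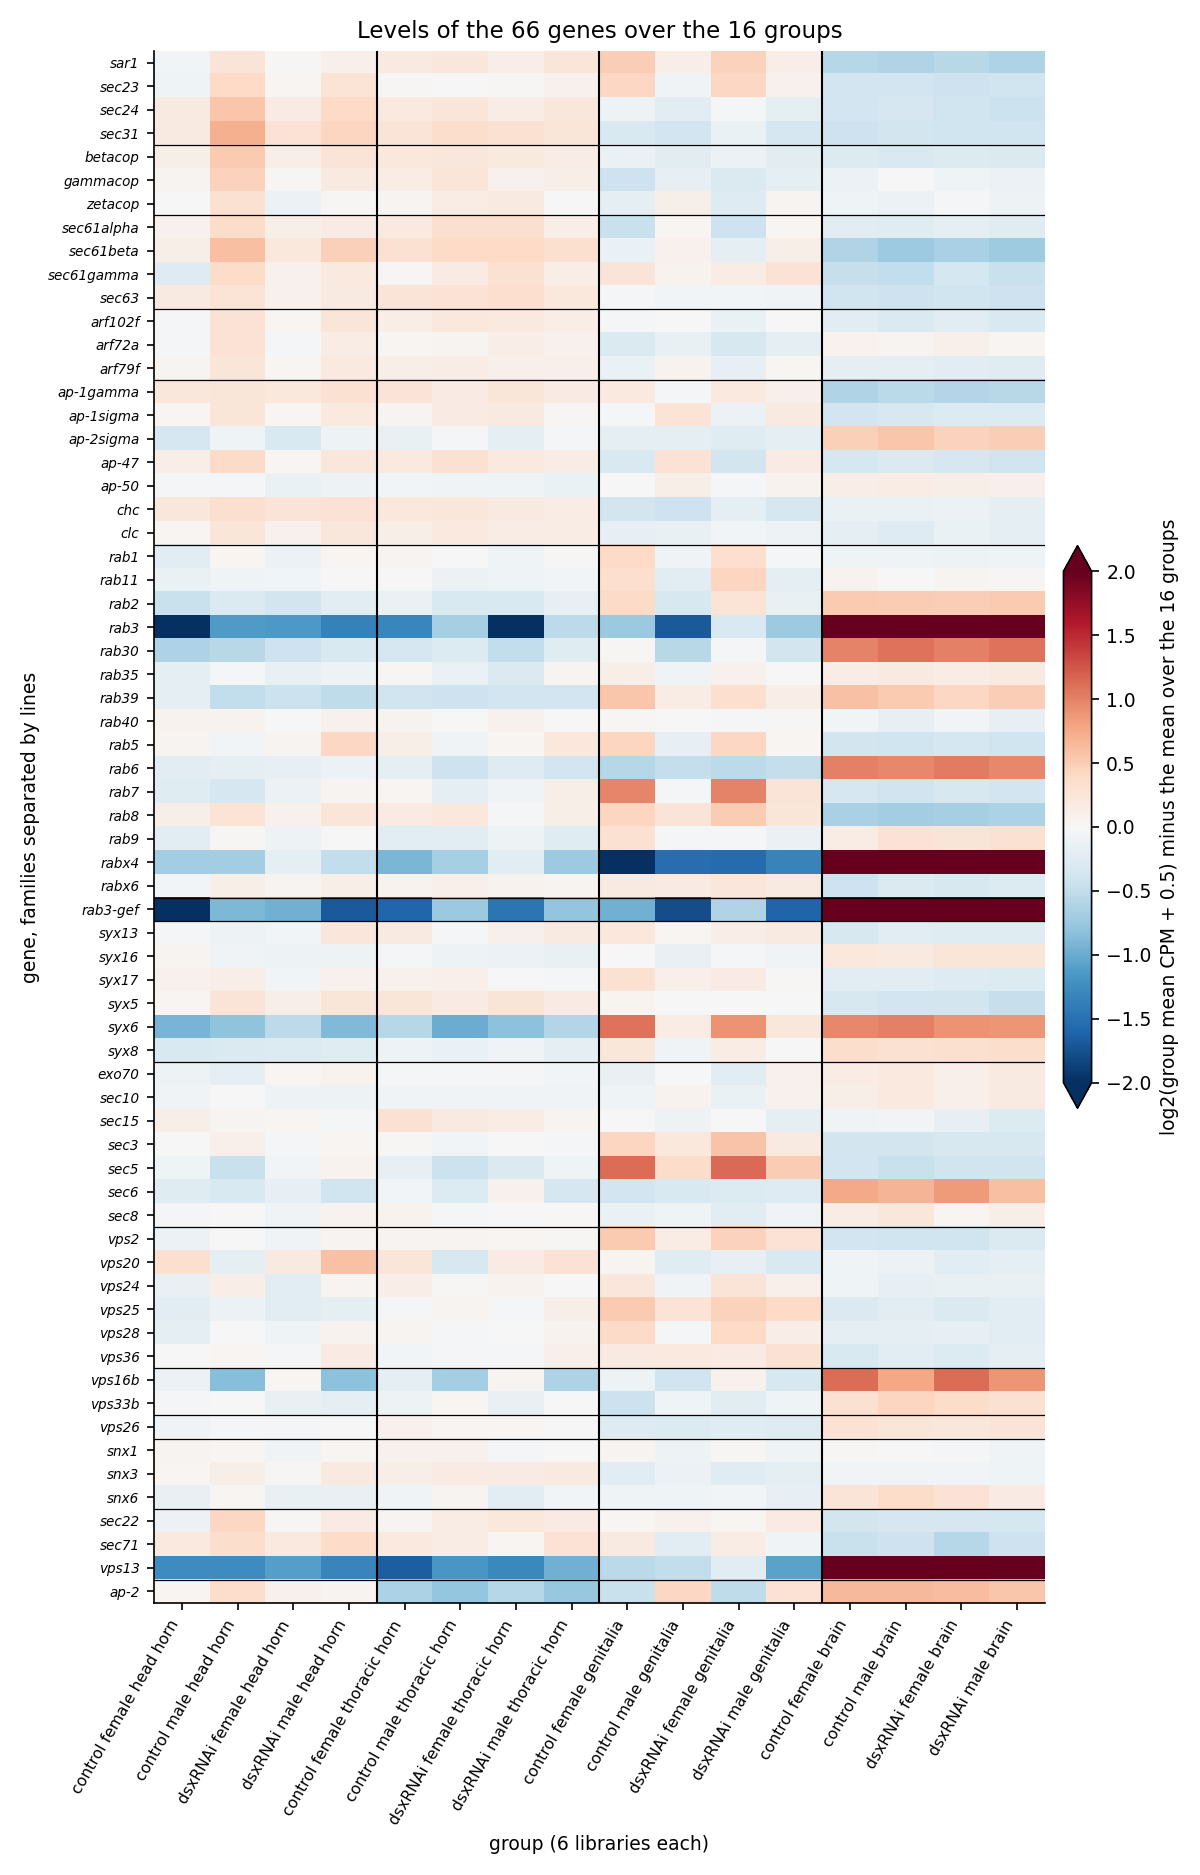
Heat map of the 66 genes (rows, by role) in the 16 groups (columns, by tissue, treatment and sex); colour is the log2 of the group mean CPM plus 0.5, minus the mean of that value over the 16 groups. The brain columns stand out for *rab3*, *rab3-gef*, *rabx4* and *vps13*, while most rows stay near 0 in every group.

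In control head horns, 11 of the 65 genes tested had male-biased and 1 had female-biased expression. The male-biased genes were all 4 COPII genes, 2 of 3 COPI subunits, 2 of 4 translocon genes, the SNARE gene *sec22*, and *rab3* with its exchange factor *rab3-gef*. The female-biased gene was *vps16b*. Of the 9111 genes tested in this comparison 3.3% were male-biased and 3.23% female-biased, against 16.9% and 1.54% of the traffic genes. The median log2 fold change of the 65 genes was −0.14, against 0.01 for all genes, and 52 of the 65 (80%) had a value below 0, against 49.1% of all genes. An unadjusted p under 0.05 was reached by 27 of the 65 (41.5%), against 24.2% of all genes. DESeq2 called 16 of the 65 (24.6%), 15 male-biased and 1 female-biased, and 11.3% of all genes.

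COPII forms the coat of vesicles that carry cargo from the endoplasmic reticulum towards the Golgi. In control head horns *sec31* (OTAU001886, scaffold 2, 2151676 to 2157462), the outer layer of the coat, lay between 127 and 173 CPM in females (median 152) and between 180 and 247 in males (median 216). The sexes did not overlap, with a log2 fold change of −0.53 (SE 0.0891, *P*adj = 0.00523). For *sec23* (OTAU011782, scaffold 1456, 120017 to 130931), the inner coat subunit that activates the GTPase of Sar1, females lay between 245 and 336 CPM (median 300.2) and males between 372 and 444 (median 424). Again every male library was above every female library, by −0.49 (SE 0.086, *P*adj = 0.00684). The cargo-binding subunit *sec24* (OTAU006288, scaffold 145, 295530 to 299315) ranged from 130 to 162 CPM in females (median 154) and from 176 to 216 in males (median 195). Here too the sexes were apart, at −0.39 (SE 0.0718, *P*adj = 0.00868). The GTPase that starts the coat, *sar1* (OTAU016870, scaffold 1413, 15406 to 17156), ranged from 180 to 214 CPM in females (median 192) and from 217 to 278 in males (median 243). Its sexes did not overlap, but the margin was narrow, and the change of −0.32 (SE 0.0761, *P*adj = 0.0278) was called in only 6 of the 12 fits that left out 1 library. The call was lost without S62, S63 or S64 of the females or S67, S70 or S71 of the males, with *P*adj up to 0.0714. The gene model of *sec23* overlaps models on the other strand, and since the strand setting of the counting is not stated, its reads are uncertain.

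COPI coats the vesicles that return proteins from the Golgi to the endoplasmic reticulum. The subunit *betacop* (OTAU012312, scaffold 93, 76462 to 79614) ranged from 152 to 182.5 CPM in control females (median 167) and from 190 to 257 in control males (median 219), with no overlap (log2 fold change −0.41, SE 0.075, *P*adj = 0.0084). For *gammacop* (OTAU013902, scaffold 936, 85535 to 87219) females lay between 58.3 and 73.9 CPM (median 63.96) and males between 71.98 and 105 (median 85.4). In 5 of 6 male libraries it was above every female library, and the change was −0.42 (SE 0.0902, *P*adj = 0.0191). The small subunit *zetacop* (OTAU008056, scaffold 390, 311600 to 313401) ranged from 29.4 to 43.2 CPM in females (median 36.2) and from 40.02 to 50.2 in males (median 44.5). Its sexes overlapped and it did not pass the test, with −0.31 (SE 0.0964, *P*adj = 0.0749), although DESeq2 gave it a *P*adj of 0.0448. Its model also overlaps models on the other strand.

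The translocon genes encode the channel through which new secretory and membrane proteins enter the endoplasmic reticulum. In control head horns *sec61gamma* (OTAU007802, scaffold 295, 130072 to 130709) ranged from 39.3 to 61.1 CPM in females (median 48.4) and from 62.4 to 91.5 in males (median 79.1). This was the largest of the called changes among coat and translocon genes, −0.63 (SE 0.126, *P*adj = 0.0128), with the sexes just apart; its model overlaps one on the other strand. The subunit *sec61beta* (OTAU005904, scaffold 27, 519460 to 519806) ranged from 73.3 to 122 CPM in females (median 85.7) and from 121 to 144 in males (median 131). The sexes overlapped, with 4 of 6 males above every female, and the change was −0.48 (SE 0.128, *P*adj = 0.0446). That call was the least firm of the 12: it was kept in 3 of the 12 fits without 1 library, those without S65, S66 or S69, and lost without a filter on low counts and in the fit of all 4 head horn groups, with *P*adj from 0.0184 to 0.103 over the fits without 1 library. The channel itself, *sec61alpha*, had −0.29 (SE 0.118, *P*adj = 0.16), and *sec63*, a partner in translocation, −0.09 (SE 0.0598, *P*adj = 0.371); neither passed the test.

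The SNARE gene *sec22* (OTAU016045, scaffold 874, 17002 to 18187) acts in fusion between the endoplasmic reticulum and the Golgi. It ranged from 22.9 to 33.3 CPM in control female head horns (median 24.7) and from 34.01 to 43.02 in males (median 39.9). The sexes did not overlap, at −0.54 (SE 0.113, *P*adj = 0.0164). Of the syntaxins, *syx5*, which acts in the same step, ranged from 50.1 to 67.3 CPM in females (median 56.1) and from 58.6 to 72.1 in males (median 66.998). It overlapped between the sexes and did not pass, at −0.22 (SE 0.0783, *P*adj = 0.118), and was called in 1 of the 12 fits without 1 library, that without S61 (*P*adj = 0.0327).

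**Figure D2:**
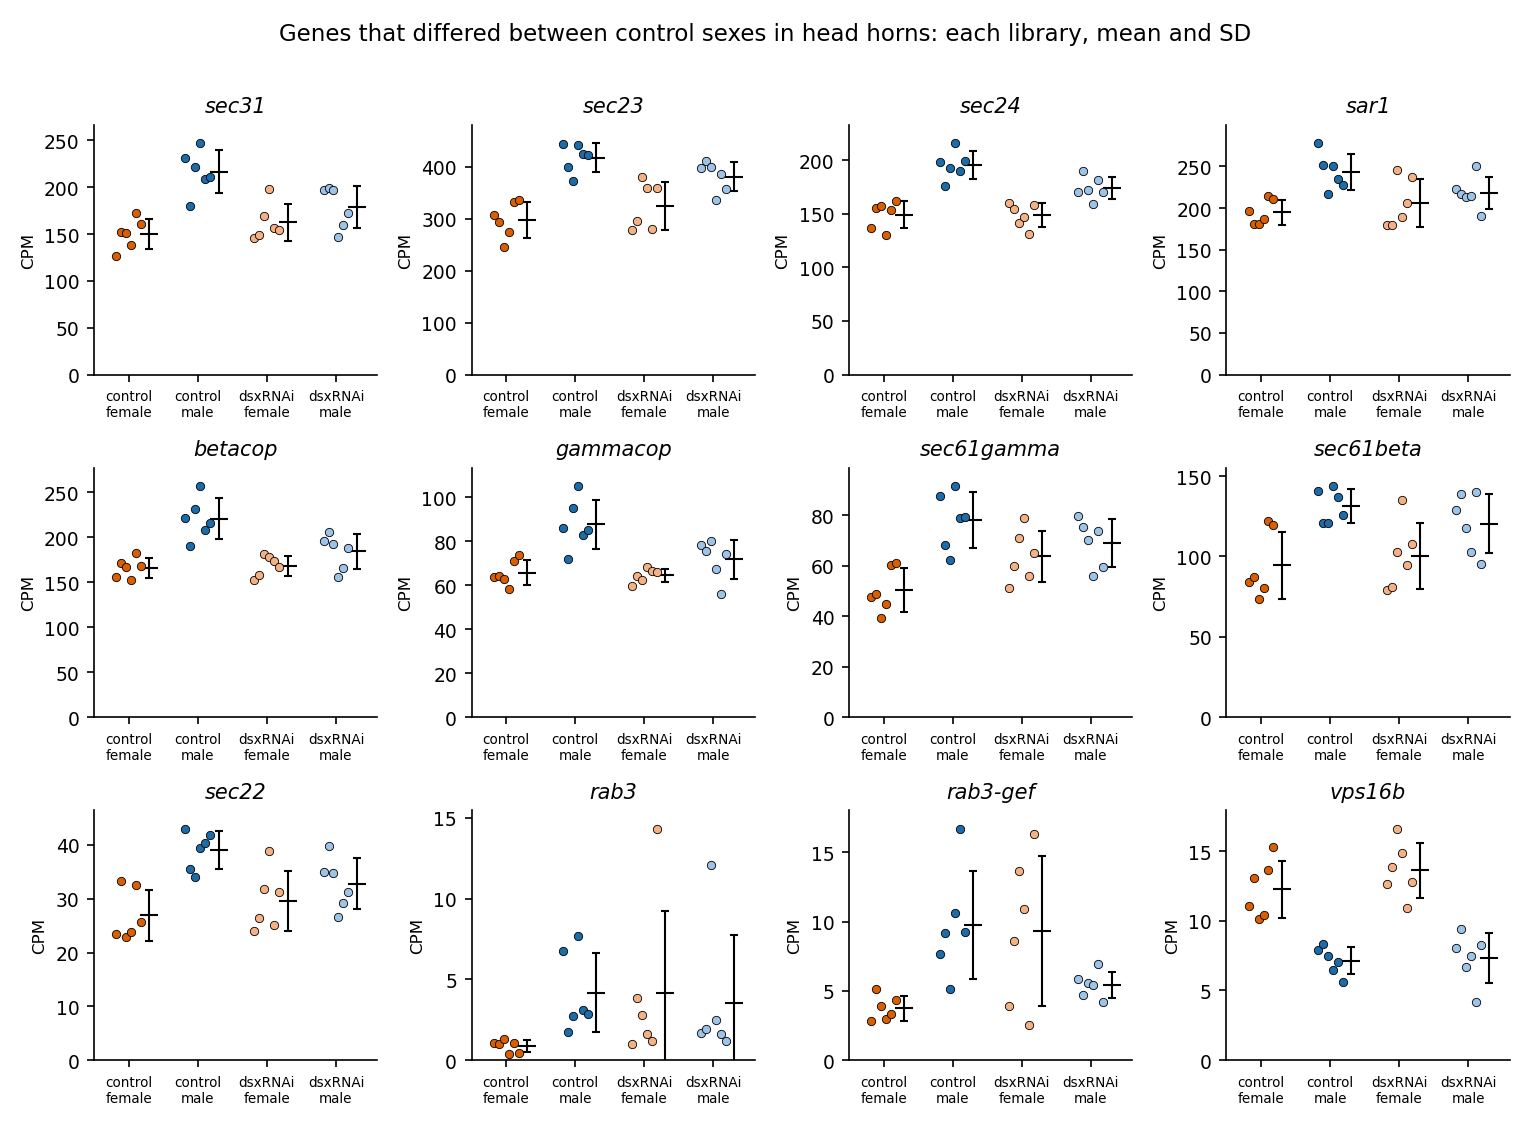
CPM (y axis, from 0) of the 12 genes called between the sexes of control head horns, in the 4 head horn groups (x axis); points are the 6 libraries of a group, bars the mean and SD, and SD bars of *rab3* that would pass below 0 stop at 0. In 9 of the 12 panels the control males and control females do not overlap, while the 2 *dsx*RNAi groups overlap in every panel but that of *vps16b*. The 12 genes were chosen by their control difference, which by itself favours less overlap in the controls.

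Both *rab3* and *rab3-gef* belong to synaptic release in the nervous system, Rab3 being a GTPase of synaptic vesicles and Rab3-GEF the protein that activates it. Their levels in head horns were low. Control females held *rab3* (OTAU003360, scaffold 527, 125123 to 127850) at 0.406 to 1.30 CPM (median 1.02) and control males at 1.76 to 7.68 (median 3.00). The sexes did not overlap, with a log2 fold change of −2.26 (SE 0.442, *P*adj = 0.0118), which the fit of all 4 head horn groups did not call (*P*adj = 0.0709). For *rab3-gef* (OTAU006392, scaffold 311, 82145 to 101081) females ranged from 2.83 to 5.17 CPM (median 3.61) and males from 5.17 to 16.7 (median 9.22). In 5 of 6 male libraries it was above every female library (−1.38, SE 0.266, *P*adj = 0.0107). Brains held both genes at far higher levels, given below. The summed level of the 10 neuron markers found ran from 155 to 180 CPM in control female and from 168 to 201 in control male head horns, none of the 5 tested was called, and 2 of the 10 were listed at 0 in the control males. The part of neurons in these 2 results was not tested.

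The female-biased gene *vps16b* (OTAU001246, scaffold 1, 332895 to 348991) is the counterpart of a *Drosophila* gene that acts with *vps33b* in traffic to lysosomes and related compartments. It ranged from 10.2 to 15.3 CPM in control female head horns (median 12.1) and from 5.64 to 8.31 in control males (median 7.26). The sexes did not overlap, at 0.78 (SE 0.137, *P*adj = 0.00692). Its partner *vps33b* had −0.04 (SE 0.161, *P*adj = 0.922). The model of *vps16b* overlaps one on the other strand, so its reads are uncertain as well.

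The remaining 53 genes tested in control head horns did not pass, with log2 fold changes from −0.32 to 0.52, 41 of them below 0. None of the 7 clathrin and adaptor genes was called: the heavy chain *chc* had −0.10 (SE 0.0693, *P*adj = 0.395) and the light chain *clc* −0.21 (SE 0.0818, *P*adj = 0.148). None of the 7 exocyst subunits, 6 ESCRT subunits, 6 syntaxins, 3 Arf GTPases or 3 sorting nexins was called either, and of 15 Rab GTPases only *rab3* was. By median log2 fold change the groups ran from COPII (−0.44), COPI (−0.41), translocon (−0.38) and Arf (−0.31), over clathrin and adaptors (−0.20), ESCRT (−0.12), Rab GTPases (−0.07) and syntaxins (−0.03), to the exocyst (0.06). These medians rest on 3 to 15 genes each. The gene closest to the threshold from outside was *rab9*, a GTPase of late endosomes, at −0.27 (SE 0.0792, *P*adj = 0.0678).

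**Figure D3:**
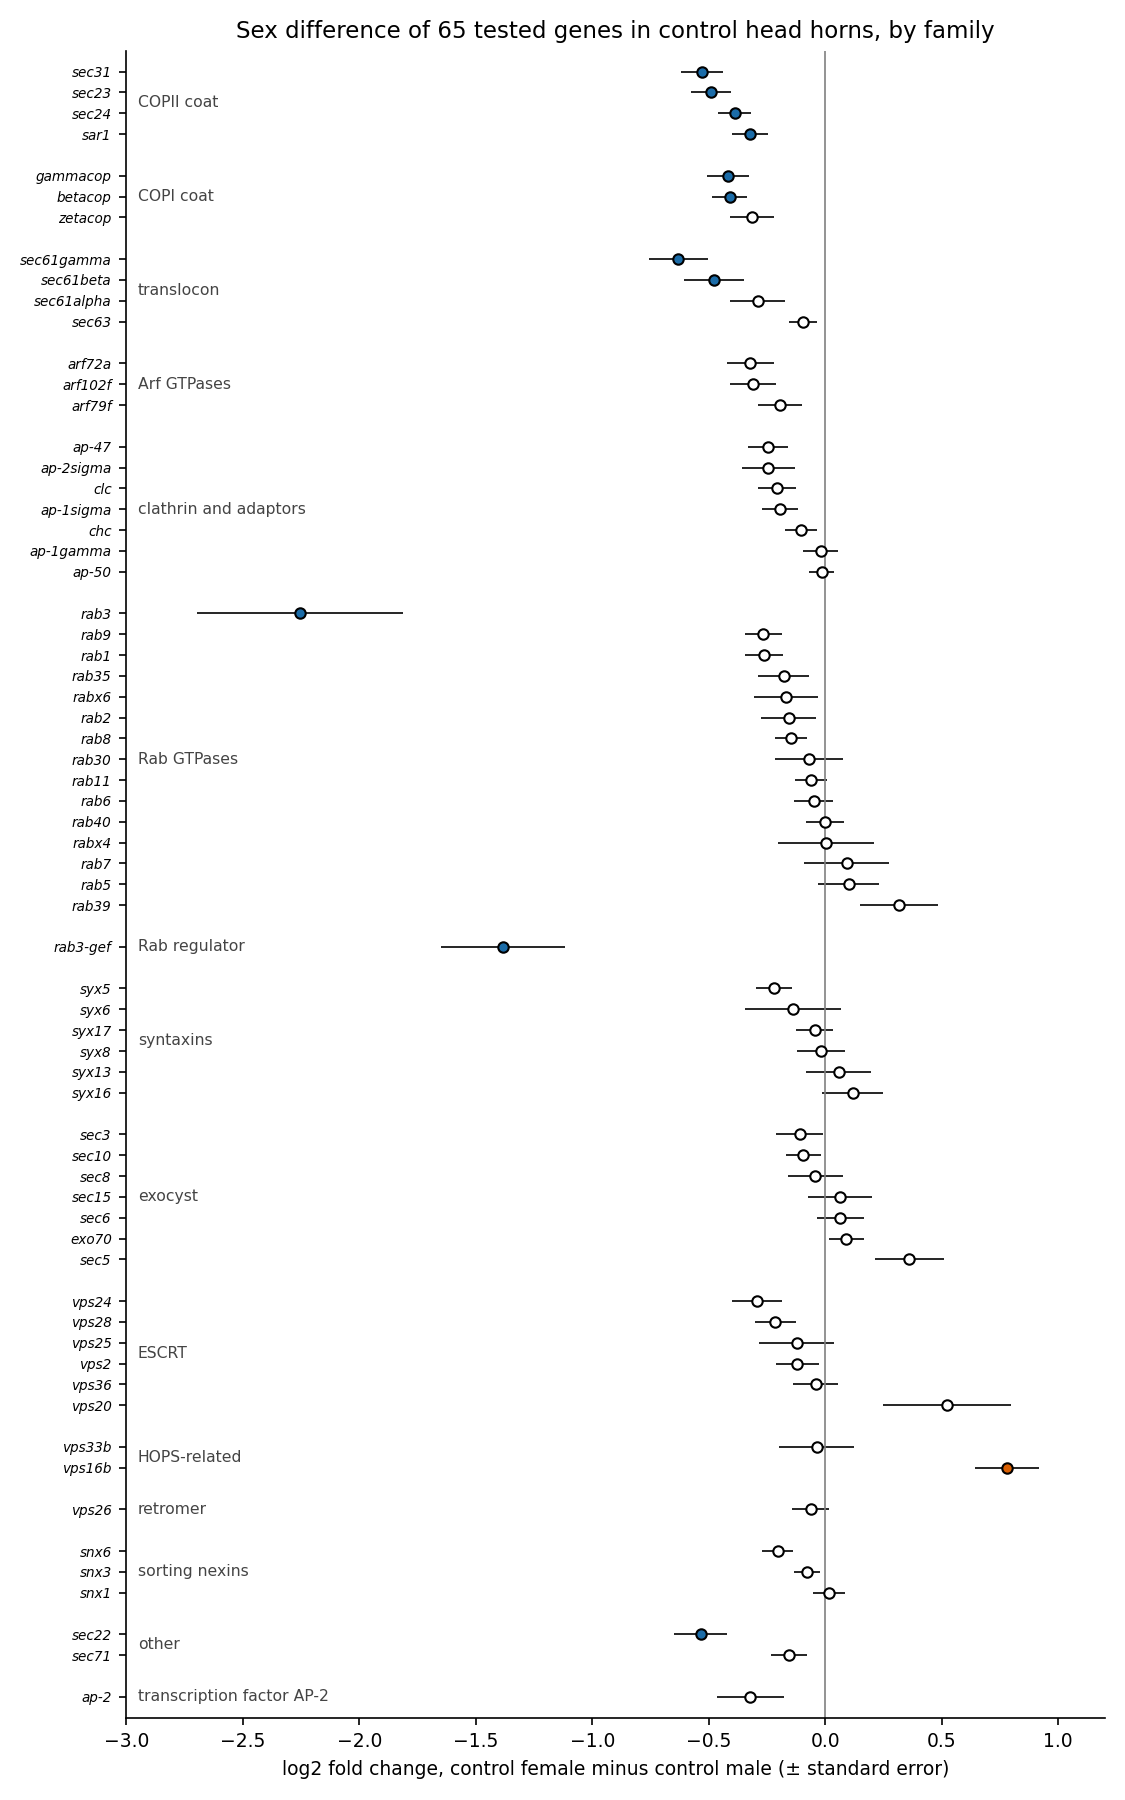
Log2 fold change, female minus male, with its SE (x axis) of the 65 genes tested in control head horns, by role (y axis); filled points passed a *P*adj of 0.05. All 4 COPII genes and 2 of 3 COPI subunits are filled and lie below 0, no clathrin, exocyst, ESCRT or syntaxin gene is filled, and *vps16b* is the only filled point above 0.

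A further list of 101 traffic genes outside the 66, named for other subunits and partners, all of them tested, held 9 male-biased and 2 female-biased genes in control head horns, where 3.3% and 3.23% of all genes were called, with a median of −0.09. The COPI subunits *copa* (−0.45, *P*adj = 0.0329), *copb2* (−0.36, *P*adj = 0.0194) and *cope* (−0.39, *P*adj = 0.0291) were male-biased, which with *betacop* and *gammacop* made 5 of 6 COPI subunits tested. The COPII subunit *sec13* was also male-biased (−0.41, *P*adj = 0.0446), as were the cargo receptors *bai* (−0.62, *P*adj = 0.0128) and *p24-1* (−0.53, *P*adj = 0.0315), the Golgi stacking gene *grasp65* (−0.47, *P*adj = 0.00252), the SNARE gene *membrin* (−0.80, *P*adj = 0.0381) and *slh* (−0.44, *P*adj = 0.0144), a regulator of SNAREs at the Golgi. The female-biased ones were the Golgi tether *cog3* (0.35, *P*adj = 0.0312) and *ema* (0.41, *P*adj = 0.0251), a gene of endosome maturation.

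Markers of other cell types also moved between the sexes in these libraries. The summed level of 5 blood cell markers ran from 380 to 480 CPM in control female and from 551 to 773 in control male head horns, with no overlap, and 3 of the 5 were male-biased (*crq*, *eater* and *hml*, the last with mean levels of 51 and 267 CPM). The summed level of 11 muscle markers ran from 619 to 840 CPM in females and from 537 to 2308 in males, of which S67 and S68 held 2303 and 2308; 1 of 10 tested, *mhc*, was male-biased. Of 11 markers of the cuticle-forming epithelium, 2 were male-biased, while their summed level overlapped, at 8868 to 29189 CPM in females and 9029 to 27317 in males. The summed level of 3 tracheal markers was higher in females, at 93.1 to 133 CPM against 66.5 to 85.9 in males, with no overlap. With S67 and S68 both left out, in a fit added after seeing the data, 9 of the 12 traffic genes stayed called and 3 did not: *sar1* (*P*adj = 0.106), *sec22* (*P*adj = 0.0572) and *sec61beta* (*P*adj = 0.118). That fit has fewer male libraries, so it cannot tell a lost difference from lost power. The part of blood cells, muscle or trachea in the sex differences was not tested. Fewer cells of a type and less RNA per cell cannot be told apart in such tissue samples.

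After knockdown of *dsx*, none of the 65 genes differed between the sexes of head horns by edgeR's quasi-likelihood test, and 0 of all 9121 genes did. That holds for the fit of the 12 *dsx*RNAi libraries, while the joint fit of the 4 head horn groups called *vps16b* (*P*adj = 0.0206), as did DESeq2, which called no other of the 65. An unadjusted p under 0.05 was reached by 3 of the 65 (4.62%), against 6.52% of all genes. The 9 male-biased genes of the coats, the translocon and *sec22* had log2 fold changes from −0.24 to −0.05, all below 0 (*P*adj from 0.688 to 0.974), where they had −0.63 to −0.32 in controls. As these 9 were picked out for passing in controls, smaller differences in other libraries can come from that choice alone. For *sec31*, *dsx*RNAi females lay between 146 and 198 CPM (median 155) and *dsx*RNAi males between 147 and 199 (median 185). The groups thus overlapped almost fully, at −0.11 (SE 0.106, *P*adj = 0.907). For *sec23* the *dsx*RNAi means were 325 CPM in females and 381 in males, for *betacop* 168 and 184, and for *sec61gamma* 63.7 and 69.1. Over all 65 genes the median was −0.09, and 48 of 65 were below 0.

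Within each sex, knockdown left no traffic gene called in head horns. In male head horns 0.251% of 9152 genes were higher and 0.142% lower after knockdown (0.393% in all), and 0 of 65 traffic genes were called by edgeR's quasi-likelihood test, 8 (12.3%) had an unadjusted p under 0.05, against 15.6% of all genes, and DESeq2 called 1 (1.54%), against 4.99% of all genes. The 11 genes that were male-biased in controls all had negative changes in males, from −0.87 (*rab3-gef*) to −0.14 (*sec61beta*), with 6 of 11 at an unadjusted p under 0.05 and *P*adj from 0.178 to 0.846. In female head horns 0 of 9148 genes and 0 of 64 traffic genes were called by edgeR's quasi-likelihood test, 3 of the 64 (4.69%) had an unadjusted p under 0.05, against 6.96% of all genes, and DESeq2 called 0. There the 10 of these 11 genes that were tested ran from −0.02 (*gammacop*) to 1.34 (*rab3-gef*). These comparisons share the control libraries in which the 11 genes were picked out, so the values are set side by side as a description.

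The difference between the 2 sex differences was tested as an interaction of sex and treatment over the 24 head horn libraries, positive where knockdown moved the female minus male difference upwards. All 11 male-biased genes had positive values, from 0.19 (*sec24*) to 2.54 (*rab3*), and 1 of 65 passed, *rab3-gef* at 2.20 (SE 0.485, *P*adj = 0.0341). The 11 were picked out by the control difference that this value subtracts, so their shared sign is favoured by that choice. Of all 9694 genes 1.17% had a called positive interaction and 0.279% a negative one, against 1.54% and 0% of the traffic genes. For the 9 genes other than *rab3* and *rab3-gef* the values were 0.19 to 0.54 with *P*adj of at least 0.121, so the lower sex bias of the coat and translocon genes after knockdown was not established by this test. The level of *rab3-gef* ran from 2.54 to 16.3 CPM in *dsx*RNAi females (median 9.76) and from 4.19 to 6.91 in *dsx*RNAi males (median 5.50). Its higher sex was thus the male in controls and, by the medians, the female after knockdown, where the groups overlapped (0.83, SE 0.389, *P*adj = 0.763). The call was kept in 14 of the 24 fits that left out 1 library, with *P*adj from 0.0084 to 0.0773, and lost without S51, S54, S56, S59, S60, S61, S64, S65, S67 or S72. In *dsx*RNAi head horns the muscle marker sum ran from 623 to 3554 CPM in females and from 537 to 1203 in males, and 5 of 10 muscle markers had a called positive interaction. The part of muscle was not tested. The level of *rab3* after knockdown rested on single libraries, S54 at 14.3 CPM among females whose median was 2.21 and S57 at 12.1 among males whose median was 1.82.

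Expression of *vps16b* was higher in females than in males in each of the 8 comparisons between sexes. Per the study's methods the 4 tissues of a sex and treatment came from the same pupae, so these comparisons are not independent. In control thoracic horns females ranged from 9.69 to 12.7 CPM (median 12.0) and males from 6.41 to 9.47 (median 8.15), with no overlap (0.52, SE 0.126, *P*adj = 0.142). Control female brains ranged from 26.8 to 31.6 CPM (median 29.6) and control male brains from 17.7 to 26.4 (median 23.5), again with no overlap (0.36, SE 0.0783, *P*adj = 0.115). In *dsx*RNAi head horns females ranged from 10.96 to 16.6 CPM (median 13.3) and males from 4.18 to 9.39 (median 7.77), with no overlap and the largest change of the 8 (0.92, SE 0.179, *P*adj = 0.249). The other 4 values, with overlapping sexes, were 0.70 in *dsx*RNAi thoracic horns, 0.38 and 0.29 in *dsx*RNAi and control genitalia and 0.23 in *dsx*RNAi brains. Of the 8, only that of control head horns was called by edgeR's quasi-likelihood test in the fits of 12 libraries, and the joint fit of the 4 head horn groups also called that of *dsx*RNAi head horns (*P*adj = 0.0206). DESeq2 called the 4 comparisons without overlap, with *P*adj of 4.26e-05 in control head horns, 0.000849 in *dsx*RNAi head horns, 0.00575 in control brains and 0.039 in control thoracic horns. The interaction of sex and treatment in head horns was 0.13 (SE 0.223, *P*adj = 0.842).

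In control thoracic horns 0 of 65 traffic genes differed between the sexes by edgeR's quasi-likelihood test (3 at an unadjusted p under 0.05, or 4.62% against 10.4% of all genes, and 1 by DESeq2), where 0.222% of 9012 genes were female-biased and 0.133% male-biased. The smallest p belonged to *vps16b* and to *vps20*, an ESCRT subunit (0.56, *P*adj = 0.314). The 9 coat, translocon and SNARE genes that were male-biased in head horns lay between −0.16 and 0.02 here, with *P*adj of at least 0.623. In control brains 0 of 66 were called by edgeR's quasi-likelihood test (5 at an unadjusted p under 0.05, or 7.58% against 8.97% of all genes, and 1 by DESeq2), where 0.1% of 9980 genes were female-biased and 0.0601% male-biased, and the same 9 genes lay between −0.12 and 0.13. After *vps16b* the smallest p was that of *gammacop* (−0.12, *P*adj = 0.377). Whether the sex difference of these genes differs between tissues was not tested.

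In the other *dsx*RNAi tissues few traffic genes differed between the sexes. None of 65 was called in thoracic horns by edgeR's quasi-likelihood test (4 at an unadjusted p under 0.05, or 6.15% against 3.81% of all genes, and 0 by DESeq2), where 0 of 9055 genes were called. The smallest p were those of the exocyst subunit *sec6* (0.41) and of *rab3* (−2.09), both at *P*adj = 0.999. None of 66 was called in brains by edgeR's quasi-likelihood test (4 at an unadjusted p under 0.05, or 6.06% against 7.04% of all genes, and 0 by DESeq2), against 0.0699% of all genes in each direction, and the smallest p were those of *sec6* (0.24, *P*adj = 0.413) and of *sec71*, an exchange factor for Arf (−0.17, *P*adj = 0.568). The joint fit of the 4 brain groups called *sec6* (*P*adj = 0.0456).

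In control genitalia 5 of the 66 genes had female-biased and 2 had male-biased expression, or 7.58% and 3.03%, against 6.53% and 3.73% of the 10014 genes tested (10.3% in either direction). The female-biased ones were 3 Rab GTPases, the syntaxin *syx6* and the exocyst subunit *sec5*, and the male-biased ones were *ap-2* and the adaptor gene *ap-47*. An unadjusted p under 0.05 was reached by 19 of 66 (28.8%), against 37.01% of all genes, and the median was 0.05 against 0.02 for all genes.

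The syntaxin *syx6* (OTAU015928, scaffold 1503, 20728 to 21196), of the trans-Golgi and endosomes, ranged from 12.9 to 35.9 CPM in control female genitalia (median 30.2) and from 12.2 to 16.8 in males (median 14.4). The log2 fold change was 0.92 (SE 0.198, *P*adj = 0.027). The exocyst subunit *sec5* (OTAU001398) ranged from 213 to 438 CPM in females (median 357) and from 187 to 239 in males (median 209), at 0.71 (SE 0.158, *P*adj = 0.0302). In both genes the lowest female library, S89, lay among the males. The late endosomal GTPase *rab7* (OTAU009488) ranged from 83.5 to 370 CPM in females (median 268) and from 114.95 to 161 in males (median 122.7), at 0.97 (SE 0.275, *P*adj = 0.0468). For *rab11* (OTAU008107), a GTPase of recycling endosomes, females ranged from 136 to 238 CPM (median 209) and males from 130 to 150 (median 136), at 0.52 (SE 0.125, *P*adj = 0.0355). The Golgi GTPase *rab2* (OTAU003778) ranged from 57.2 to 135 CPM in females (median 116) and from 60.8 to 82.2 in males (median 67.6), at 0.66 (SE 0.176, *P*adj = 0.0418). All 3 were lowest among females in S89 and overlapped between the sexes.

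The adaptor gene *ap-47* (OTAU001289), the medium subunit of the clathrin adaptor AP-1, ranged from 43.7 to 83.5 CPM in control female genitalia (median 55.4) and from 81.4 to 94.7 in males (median 85.8). It was male-biased by −0.63 (SE 0.149, *P*adj = 0.0336), with S89 the one female library among the males. The transcription factor gene *ap-2* (OTAU009544, scaffold 331, 217733 to 238266) ranged from 8.75 to 20.95 CPM in females (median 15.02) and from 21.3 to 33.2 in males (median 28.3). This was the only one of the 7 whose sexes did not overlap, at −0.92 (SE 0.175, *P*adj = 0.0167), and it stayed called in all 12 fits without 1 library, with *P*adj from 0.00309 to 0.0473.

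The count of 7 depended on single libraries. Without S89 it was 28 (18 female-biased and 10 male-biased), or 42.4% of the 66, which included all 7, and 4568 of 10113 genes (45.2%) were called in all. Without S85 it was 1, *ap-2*, and 244 of 10100 genes (2.42%) were called in all. Without a filter on low counts it was 4, with *rab2*, *rab11* and *rab7* lost, and by DESeq2 14 (21.2%), against 24.1% of all genes. Over the 12 fits without 1 library *syx6* was called in 4 and *sec5* in 3, while *rab2*, *rab7*, *rab11* and *ap-47* were each called in 1. S89 also stood apart in the markers: its muscle marker sum was 3150 CPM, against 6885 to 11964 in the other 5 control female and 2485 to 3951 in the control male libraries, and its blood cell marker sum was 292 CPM, against 797 to 1398 in the other 5. Between the sexes 9 of 11 muscle markers were female-biased in control genitalia, against 6.53% of all genes tested. The part of muscle in the 7 results was not tested. Of the 101 other traffic genes, 8 were female-biased and 3 male-biased here, where 6.53% and 3.73% of all 10014 genes tested were.

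In *dsx*RNAi genitalia 1 of 65 genes was called, the exocyst subunit *exo70* (OTAU001917, scaffold 2, 2451636 to 2455615), which made 1.54% where 0.972% of 9980 genes were male-biased and 1.09% female-biased (2.06% in all). It ranged from 26.3 to 31.6 CPM in females (median 27.99) and from 33.2 to 36.7 in males (median 35.4). The sexes did not overlap, at −0.34 (SE 0.073, *P*adj = 0.0408). Its call was kept in 1 of the 12 fits without 1 library, that without S76, and lost without a filter on low counts (*P*adj = 0.0598). Without S76 10 traffic genes (15.4%) were called, against 1680 of 10078 genes (16.7%). That library held a muscle marker sum of 3124 CPM, against 4810 to 10804 in the other 5 *dsx*RNAi female libraries and 2269 to 7327 in the males, and the part of muscle was not tested.

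Outside head horns, knockdown again left no traffic gene called by edgeR's quasi-likelihood test, and DESeq2 called 0 in each of the 6 comparisons. An unadjusted p under 0.05 was reached by 1 gene in male thoracic horns, 0 in male genitalia, 7 in male brains, 2 in female thoracic horns, 0 in female genitalia and 3 in female brains, or 0% to 10.6% of the traffic genes, against 2.23% to 6.59% of all genes. Among all genes 0 were called in 5 of these comparisons and 0.0101% in female genitalia. The genes with the smallest p were *vps20* (0.64, *P*adj = 0.697) and *rab5* (0.30, *P*adj = 0.764) in male thoracic horns, and *rab3* (1.06) and *sec23* (0.14) in male genitalia, both at *P*adj = 0.783. In male brains they were *sec24* (−0.08) and *gammacop* (−0.12), both at *P*adj = 0.806, and in female brains *sec71* (−0.13) and *rab39* (−0.19), both at *P*adj = 0.999. In female thoracic horns they were *rabx4* (0.79) and *rab35* (−0.31), and in female genitalia *rabx4* (0.77) and *vps33b* (0.22), all at *P*adj = 1. The interaction of sex and treatment called 0 traffic genes by edgeR's quasi-likelihood test in thoracic horns (1 at an unadjusted p under 0.05), genitalia (0) and brains (3), and DESeq2 called 0. Of all genes 0.0105%, 0.0191% and 0% passed in either direction.

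Per the study's methods the 4 tissues came from the same 6 pupae of a sex and treatment. The labels do not link them, so the 24 control libraries of a sex entered the tissue comparisons as unpaired, and p-values between tissues treat them as independent.

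Between brain and epithelia most of the 66 genes were called. In control males 24 of the 66 were higher and 33 lower in brain than in the mean of the 3 epithelia, or 36.4% and 50%, against 39.9% and 39% of 10689 genes. In control females 19 were higher and 30 lower, or 28.8% and 45.5%, against 33.1% and 36.3% of 10698 genes. Most of all genes were called too.

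The genes highest in brain were those of synaptic release and a pair of less studied ones. In control male brains *rab3* ranged from 126 to 149 CPM (median 137) and in control female brains from 117 to 140 (median 130). In the other tissues its group means lay between 0.876 and 7.84 CPM. The difference between brain and the mean of the epithelia was 5.09 in males (SE 0.333, *P*adj = 1.98e-12) and 5.68 in females (SE 0.455, *P*adj = 1.56e-10). Its exchange factor *rab3-gef* ranged from 264 to 297 CPM in male (median 273) and from 245 to 290 in female brains (median 259), at 5.09 (SE 0.236) and 5.46 (SE 0.241). The Rab GTPase *rabx4* (OTAU001006) ranged from 37.8 to 44.1 CPM in male (median 40.9) and from 35.98 to 44.4 in female brains (median 39.6), at 4.04 (SE 0.133) and 4.28 (SE 0.172). For *vps13* (OTAU006203), whose protein transfers lipids between membranes, male brains ranged from 15.1 to 21.7 CPM (median 16.6) and female brains from 12.0 to 23.5 (median 16.9), at 5.04 (SE 0.167) and 5.40 (SE 0.414). No library of another tissue reached the level of any brain library for *rab3*, *rab3-gef*, *rabx4* or *vps13*. In head and thoracic horns *vps13* was close to absent from the counts, with 0 to 10 reads per library. It passed the filter on low counts in these fits through the brain libraries, where it is high, so its brain difference is not independent of that filter.

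**Figure D4:**
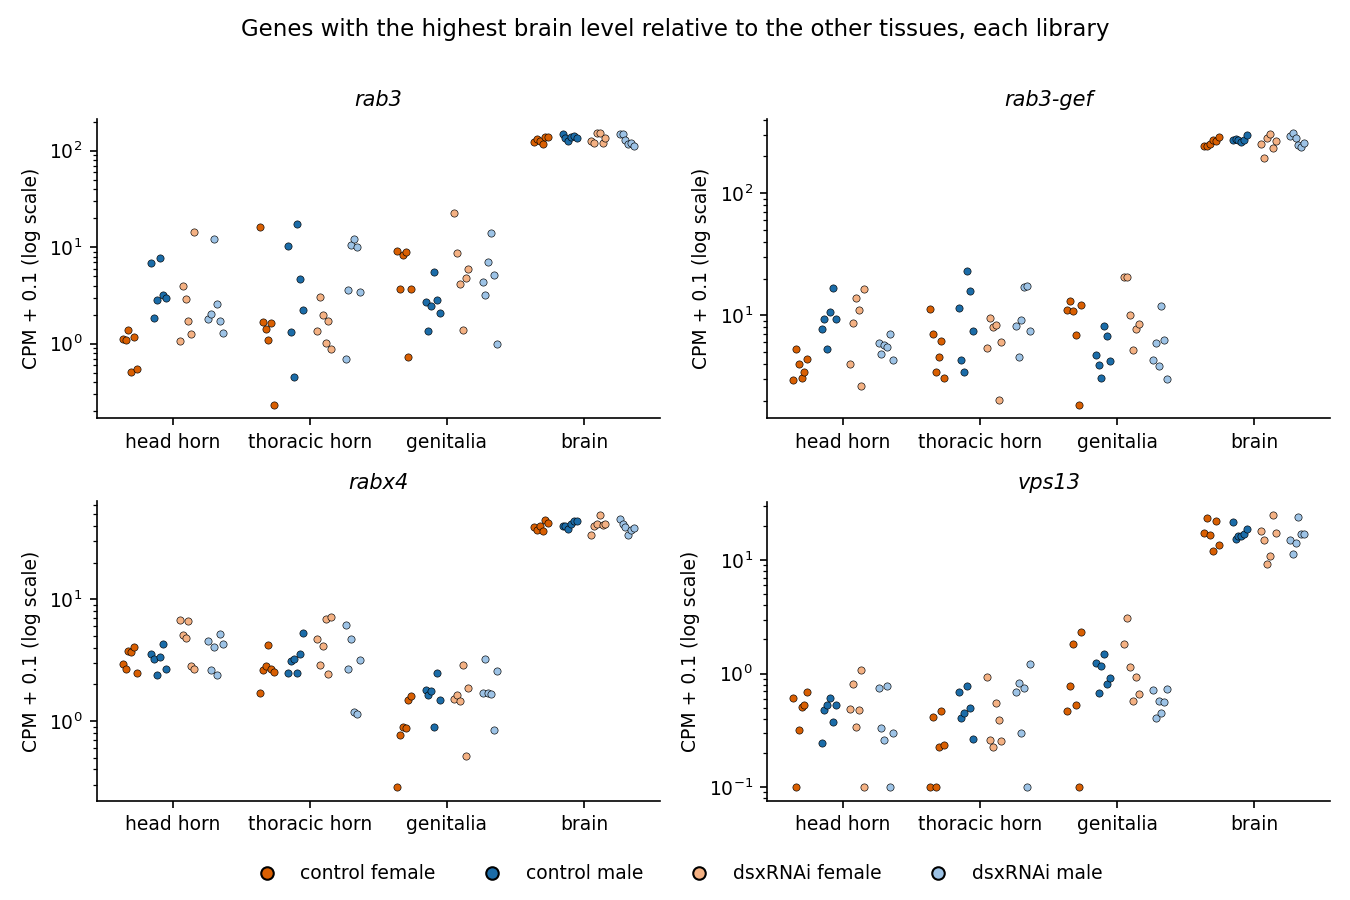
CPM plus 0.1 (y axis, log scale) of *rab3*, *rab3-gef*, *rabx4* and *vps13* in each of the 96 libraries, by tissue, treatment and sex (x axis). The brain libraries lie above those of every other tissue in all 4 panels, and the 4 brain groups of a gene overlap.

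Smaller positive differences in brain were found for *syx6* (1.64 in males, 1.11 in females), the Golgi GTPases *rab30* (1.59 and 1.30) and *rab6* (1.35 and 1.32), and *vps16b* (1.49 and 1.25). Most of the early secretory genes were lower in brain, where 39% of all genes in males and 36.3% in females were called lower. All 4 COPII genes were lower in both sexes, with *sar1* at −0.79 in males and −0.81 in females, *sec31* at −0.58 and −0.49, *sec23* at −0.47 and −0.53 and *sec24* at −0.52 in each. The translocon genes were lower in 4 of 4 cases in males and 3 of 4 in females, led by *sec61beta* (−1.08 and −0.74), and COPI subunits in 3 of 3 and 1 of 3. Of 6 ESCRT subunits 4 were lower in each sex. Other genes low in brain were *rab8* (−0.93 in each sex), a GTPase of transport to the cell surface, and the AP-1 subunit *ap-1gamma* (−0.65 and −0.88).

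Between the horns of control males, 9 genes were higher in head horns and 0 in thoracic horns, or 13.6% and 0% against 4.82% and 3.93% of all genes. The largest difference was that of *ap-2*, which ranged from 20.4 to 35.3 CPM in head horns (median 25.2) and from 10.5 to 13.1 in thoracic horns (median 12.3). Its log2 difference was 1.14 (SE 0.118, *P*adj = 3.05e-07), with no overlap. It was followed by *sec23* (0.40, *P*adj = 4.93e-05), *sec31* (0.34, *P*adj = 0.00566), *sec24* (0.31, *P*adj = 0.000261) and *betacop* (0.29, *P*adj = 0.012). The other 4 were *sec22* (0.26), *arf72a* (0.23), the counterpart of Arl1 at the Golgi, *rab6* (0.22) and *sec71* (0.19). In control females only *ap-2* was called, at 0.71 (SE 0.165, *P*adj = 0.0117), or 1.52% higher in head horns against 2.54% of all genes. The COPII subunits *sec23* and *sec31* had −0.10 and −0.06 there, and the difference between the sexes in this respect was not tested. In males the blood cell markers *hml* and *ush* were lower in head than in thoracic horns, at −3.01 and −1.03, and the part of blood cells was not tested.

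Genitalia were compared with the mean of the 2 horns. In control males 10 genes were higher and 23 lower in genitalia, or 15.2% and 34.8% against 26.3% and 25.5% of all genes. The highest were *syx6* (1.11), *sec5* (0.83), *ap-2* (0.66) and *rab39* (0.63), apart from *vps13*, and the lowest *rab3-gef* (−1.03), *rabx4* (−1.01), *sec31* (−0.90), *chc* (−0.67) and *sec24* (−0.61). In control females 26 were higher and 16 lower, or 39.4% and 24.2% against 29.4% and 22.9% of all genes. The highest were *syx6* (1.95), *rab3* (1.83), *sec5* (1.30) and *rab7* (1.14), apart from *vps13*, and the lowest *rabx4* (−1.61), *sec61alpha* (−0.54), *chc* (−0.53), *sec31* (−0.47) and *gammacop* (−0.46). The values of *vps13*, 1.30 in males and 1.90 in females, rest on few reads, 6 to 21 per library in control male and 0 to 31 in control female genitalia and at most 4 in control horns, with every group mean under 1 CPM. It passed the filter of these fits through the brain libraries, and it is among the genes counted above as higher in genitalia. By role, 11 of 15 Rab GTPases and 5 of 6 ESCRT subunits were higher in female genitalia, against 2 of 15 and 2 of 6 in males, and *rab3-gef* was higher in female (1.05) and lower in male genitalia (−1.03). In females all 11 muscle markers were higher in genitalia than in horns, and their part in these differences was not tested.

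On the scaffolds the 66 genes were spread over 54 sequences of the assembly. Only 2 pairs lay within 100 kb of each other: *arf102f* and *ap-47* on scaffold 1, 3008 bases apart, and *vps24* and *sec61alpha* on scaffold 858, 48179 bases apart. None of these 4 genes was called between the sexes of head horns, and *ap-47* alone was called between those of control genitalia. Of the 66 models 18 overlap another model, in each case on the other strand. Among the genes called between the sexes these were *sec23*, *sec61gamma* and *vps16b*.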

How the data were processed

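Counts per gene were deposited by the authors without normalization for 17483 genes and 96 libraries, together with FPKM values, which the authors made with DESeq2, and gene positions and names. Per the submitters' processing notes and the methods, single-end reads of stranded libraries were trimmed with Trimmomatic 0.32, mapped with TopHat2 2.1.0 to the *O. taurus* v0.5.3 gene models and counted with HTSeq 0.6.1p1. The strand setting of the counting is not given in the sources used here.

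Counts were tested with edgeR 4.0.16 in R 4.3.3 (quasi-likelihood test with robust dispersion, TMM factors, filterByExpr by group, Benjamini-Hochberg adjustment over all genes tested, threshold 0.05). Sex differences and knockdown effects were fitted on the 12 libraries of a comparison, interactions on the 24 of a tissue, and tissue differences on the 24 control libraries of a sex. Values in CPM use TMM factors over all 96 libraries. Per the methods, the 6 libraries of a group were biological replicates from 6 pupae, each of which gave all 4 tissues. As the labels do not link them, tissue fits took the libraries as unpaired. No 2 libraries were identical. Depth was 3615803 to 19008005 reads, and genes with few reads, such as *vps13* in horns, failed the filter there.

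Genes and lists were chosen with earlier results of these data known. Named with values were the genes called in control head horns, all COPI, COPII and clathrin genes and *syx5* there, the 5 called genes with the largest absolute change in each direction elsewhere, and the 2 with the smallest p where none was called. Outside that rule, and chosen after their values were seen, are *vps16b* in all comparisons, *rab9*, *vps33b*, the translocon genes, the 11 male-biased genes in other comparisons, and the genes named for brain beyond the first 5 and by the ratio of group means. Alternatives were DESeq2 1.42.0, edgeR scaled by DESeq2's size factors, edgeR without the filter, a joint fit of the 4 groups of a tissue, each library left out, and S67 and S68 both left out. Fits were tested on simulated data. Tables were joined with Python 3.11.15 and pandas 2.3.3. No gene matched the RefSeq symbols at hand, and no sequence was used here.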

Additional observations from a re-analysis of the deposited data

Results flagged for a closer look

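Among the named genes, 94 groups of 6 libraries were examined for a library far from the others by Dixon's test, and 5 showed one, where chance gives about 1 in 20. In control female genitalia *rab2* stood at 57.2 CPM in S89, against 107 to 135 in the others. In control male genitalia S94 was high for 2 genes, *rab2* at 82.2 CPM against 60.8 to 68.2 and *rab3* at 5.38 CPM against 1.25 to 2.76. In control male brains *vps16b* was at 17.7 CPM in S24, against 23.2 to 26.4. In control female thoracic horns *rab35* was at 64.4 CPM in S37, against 37.3 to 41.7.

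A difference between groups was found for *rab3-gef* in head horns. Its sex difference changed with knockdown by 2.20 on the log2 scale (edgeR's quasi-likelihood test, *P*adj = 0.0341), from −1.38 in controls to 0.83 after knockdown. The fits without 1 library that lost this call are given above, as are the muscle markers of these groups, whose part was not tested.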

How the results depend on the processing

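None of the values given reversed its direction. The fits that left out 1 library are not in the following tally and are given below. Of the 34 other alternatives to a count above 0, 28 stayed within 1.5 times of it, and of the 61 to a count of 0, 55 gave 0. By DESeq2 the count was 1 in control thoracic horns, 1 in control brains, 1 in *dsx*RNAi head horns, 1 for the knockdown in male head horns, 14 in control genitalia and 5 in *dsx*RNAi genitalia. Without a filter on low counts it was 4 in control and 0 in *dsx*RNAi genitalia. With DESeq2's size factors it was 2 in *dsx*RNAi genitalia. In a joint fit of the 4 groups of a tissue it was 1 in *dsx*RNAi head horns (*vps16b*), 5 in *dsx*RNAi genitalia and 1 in *dsx*RNAi brains (*sec6*, *P*adj = 0.0456). The cause of these shifts was not tested. For control genitalia and the knockdown in male head horns, the DESeq2 shares of all genes are given above. With 1 library left out, counts ran from 10 to 14 in control head horns, 1 to 28 in control genitalia, 0 to 10 in *dsx*RNAi genitalia and, in fits added after seeing the data, 0 to 2 for the interaction in head horns. Calls among all genes tested ran, in the same order, from 325 to 647, 121 to 4568, 20 to 1680 and 4 to 395. The counts of traffic genes were 0 in every such fit of the other sex and knockdown comparisons. No paired analysis was possible because no library number is shared between groups and no label links tissues to one animal.

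Depth limits the genes with few reads: *vps13* was not tested in head horns, and *rab3* had 3 to 10 reads per library in control female head horns. Genes that overlap a model on the other strand are uncertain.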
